A study of Mus musculus with 24 samples.

Results

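H3K4me3 was examined at the promoters of the neurotrophin system, which here meant the ligand genes Bdnf and Ntf3 and the receptor genes Ntrk2, Ntrk3 and Ngfr. A counted region was taken as a member when it overlapped an annotated transcription start site (TSS) of 1 of these 5 genes in GENCODE M1 on mm9, without reference to its counts. This gave 6 of the 17993 regions, which belonged to 4 genes: Bdnf had 3, and Ntrk2, Ntrk3 and Ngfr had 1 each. No region overlapped the TSS of Ntf3. Accepting a TSS within 1000 bp of a region left the number at 6.

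The libraries came from cerebral cortex of C57BL/6 mice, in 4 groups of 3 libraries, each library from a lysate of 2 animals. The Rosa H2B-FLAG line, genotype Rosa CAG-H2B-FLAG, was obtained with Vasa-Cre and carried a tagged histone H2B in nearly all cells from development onwards. The Camk2a H2B-FLAG line, which combined Rosa26 CAG-floxed-pA-H2B-FLAG with CaMKCreERT2, carried the same tag only where tamoxifen-activated Cre had recombined the locus in Camk2a-positive neurons. Male double heterozygotes of that line received 1 mg of tamoxifen per day on 5 days from 8 weeks of age and were used as adults a month later, whereas no tamoxifen is stated for the Rosa H2B-FLAG line and its ages are not given in the sources used here. Both lines were heterozygous for the CAG-driven cassette, and part of the tagged histone in them has an extended N terminus. In single ChIP-Seq, cortex chromatin was precipitated with an antibody against H3K4me3 alone, so every cell contributed. In tChIP-Seq, chromatin was first recovered through the FLAG tag and then precipitated with the H3K4me3 antibody, so that the tagged cells were sampled. The authors place the labelled share of brain cells near the technical limit set by their cell-mixing test. The 12 input and FLAG-only libraries were not used here.

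Neurotrophins are secreted growth factors that act on neuronal survival, neurite growth and synaptic strength. BDNF, the product of Bdnf, signals through the receptor tyrosine kinase TrkB, encoded by Ntrk2, while NT-3, the product of Ntf3, signals mainly through TrkC, encoded by Ntrk3. The p75 receptor encoded by Ngfr binds all mature neurotrophins with low affinity and their uncleaved precursors with high affinity, and it can modify Trk signalling or signal by itself. Bdnf is transcribed from several alternative 5' exons, each with a promoter of its own and each spliced to the same coding exon, and some of these promoters respond to neuronal activity. H3K4me3 is a histone mark concentrated at the promoters of active genes.

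Bdnf lies on the plus strand of chromosome 2 and had 10 annotated transcripts with 7 distinct TSSs, all of which were inside regions. Bdnf region 1 (chr2:109513660-109515724, 2065 bp) held the TSS at 109514857, which is that of exon I. Bdnf region 2 (chr2:109515765-109518551, 2787 bp) held the TSSs at 109516054 and 109517251, of exons II and III. Bdnf region 3 (chr2:109532213-109535827, 3615 bp) held the TSSs at 109532593, 109533720, 109534626 and 109534628, of exons IV, V and VI. Regions 1 and 2 were separated by 40 bp, which is less than the read length of 80 nucleotides, and regions 2 and 3 by 13661 bp.

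The 250 bases upstream of the leading TSS of Bdnf regions 1 and 3 are shown because these are separate promoters whose marks are compared below. They were read from mm9 on the plus strand and overlap no annotated exon. Capitals mark matches to TGACG, the half-site of the cyclic AMP response element, on either strand.
Bdnf exon I promoter, chr2:109514607-109514856: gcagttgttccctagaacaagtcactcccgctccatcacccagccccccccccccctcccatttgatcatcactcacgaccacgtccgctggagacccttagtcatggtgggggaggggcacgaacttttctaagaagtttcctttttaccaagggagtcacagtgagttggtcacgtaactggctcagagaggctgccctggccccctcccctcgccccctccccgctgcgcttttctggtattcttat
Bdnf exon IV promoter, chr2:109532343-109532592: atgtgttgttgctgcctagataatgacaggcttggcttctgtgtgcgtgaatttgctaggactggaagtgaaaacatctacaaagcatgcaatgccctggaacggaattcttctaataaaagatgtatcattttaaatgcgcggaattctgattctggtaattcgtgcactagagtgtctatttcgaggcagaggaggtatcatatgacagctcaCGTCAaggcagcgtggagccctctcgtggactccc
The exon IV promoter held TGACG on the minus strand, starting 35 bases upstream of the TSS, which lies in the stretch known as the calcium-responsive element of this promoter. The exon I promoter held no exact match, and variants of these letters were not searched. Over the 38825 distinct TSSs inside regions, 27.6% of such 250-base windows held TGACG, 3.04% the full element TGACGTCA, which contains TGACG on both strands, and 8.37% the E-box CACGTG on either strand. These windows contained 9 CpG dinucleotides each, against a median of 17 with quartiles of 11 and 25, so both Bdnf promoters were poor in CpG. A match of letters describes the sequence and is not evidence of binding.

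Among the receptors, the Ntrk2 region (chr13:58907697-58914708, 7012 bp) covered all 3 TSSs of its 5 transcripts, including those of full-length and truncated TrkB, which therefore could not be told apart. The Ntrk3 region (chr7:85719227-85724842, 5616 bp) covered 2 of the 3 TSSs and also a TSS of Gm9885, with which its counts are shared, while the TSS of transcript Ntrk3-004 at 85522708 lay in no region. The Ngfr region (chr11:95447705-95449183, 1479 bp) covered the only annotated TSS. Ntrk2 and Ntrk3 had unusually wide regions, wider than 99.7% and 98.3% of the 13404 regions at a TSS, whereas 22.9% of them were narrower than the Ngfr region. CpG density ran the other way, from 3.34 per 100 bp at Ntrk2 to 5.88 at Ngfr, against a median of 4.36 over regions at a TSS.

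Total counts over all regions ranged from 6316125 to 8644574 in Rosa H2B-FLAG single ChIP-Seq, from 4063200 to 4233144 in Camk2a H2B-FLAG single ChIP-Seq, from 2709729 to 3049130 in Camk2a H2B-FLAG tChIP-Seq, and from 1457261 to 1828371 in Rosa H2B-FLAG tChIP-Seq. The Rosa H2B-FLAG tChIP-Seq libraries were thus the shallowest, and gave between 33 and 41 counts at Bdnf region 1 and between 23 and 59 at Ngfr. Replicates of each group differed by slightly more than sampling noise, and no library stood for another. Levels are given as CPM, the counts scaled to a common library size after TMM normalization of the 12 libraries together, and as CPM per kb where regions of different width are compared.

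The first question was whether FLAG-recovered chromatin of Camk2a-positive neurons carried more of the mark at these promoters than that of nearly all cortical cells. In tChIP-Seq, H3K4me3 was higher in the Camk2a H2B-FLAG line than in the Rosa H2B-FLAG line at all 3 Bdnf regions, at Ntrk2 and at Ntrk3, by between 1.38 and 2.71 times, and the difference at Ngfr did not pass the test. Thus 5 of the 6 regions were called, all higher, where 31.6% of all regions were called in this comparison and 17.0% were called higher. The median log2 fold change was 0.98 over the 6 regions and -0.0033 over all regions. The 3 libraries of the Camk2a H2B-FLAG line lay above those of the Rosa H2B-FLAG line at the same 5 regions, an arrangement that 24.8% of all regions showed, while 23.6% showed the opposite one.

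Bdnf region 1 had 21.4, 19.7 and 26.2 CPM in the 3 Rosa H2B-FLAG tChIP-Seq libraries and 41.0, 46.6 and 51.9 CPM in the 3 of the Camk2a H2B-FLAG line. The lowest Camk2a H2B-FLAG library was well above the highest Rosa H2B-FLAG library. The log2 fold change was 1.06 (adjusted p = 3.1e-09, SE 0.147), or 2.08 times.

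Bdnf region 2 had 32.9, 21.5 and 32.1 CPM in the Rosa H2B-FLAG libraries and 76.4, 72.9 and 85.5 CPM in those of the Camk2a H2B-FLAG line. The groups again did not overlap, and replicate 2 was the low one in the Rosa H2B-FLAG line. With a log2 fold change of 1.44 (adjusted p = 2.44e-17, SE 0.124), or 2.71 times, this region, at exons II and III, had the largest fold change of the 6.

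Bdnf region 3, which includes the activity-responsive exon IV promoter, had 50.1, 55.5 and 51.2 CPM in the Rosa H2B-FLAG line and 125.7, 118.4 and 120.1 CPM in the Camk2a H2B-FLAG line. Replicates were close together in both groups. The log2 fold change was 1.22 (adjusted p = 2.73e-20, SE 0.0914), or 2.34 times. The 95% intervals of the log2 fold changes of the 3 Bdnf regions overlapped, and the differences between them were not tested.

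Ntf3, the gene of NT-3, had no region at its TSS, at position 126116762 of chromosome 6 on the minus strand. Its promoter was therefore not counted, and its level is not known from these data. The 250 bases upstream of it held the E-box CACGTG starting 231 bases upstream. Inside its intron lay 2 small regions, at chr6:126112934-126113564 (631 bp, 3198 bp from the TSS) and chr6:126113754-126114427 (674 bp, 2335 bp from it). They held few counts, between 5 and 16 in the Rosa H2B-FLAG tChIP-Seq libraries and between 18 and 35 in those of the Camk2a H2B-FLAG line. The log2 fold change was 0.49 (adjusted p = 0.152, SE 0.276) at the farther and 1.01 (adjusted p = 0.00987, SE 0.331) at the nearer, and the latter was called in 2 of its 11 alternative fits, with adjusted p between 0.0046 and 0.0753. It lost the call without any of the libraries but replicate 3 of the Camk2a H2B-FLAG line, with log2 fold changes between 0.81 and 1.15 over the 6 omissions.

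Among the receptors, Ntrk2 had 181, 212 and 191 CPM in the Rosa H2B-FLAG tChIP-Seq libraries and 251.0, 283 and 268 CPM in those of the Camk2a H2B-FLAG line. The groups did not overlap, but the difference was the smallest of the 5. The log2 fold change was 0.47 (adjusted p = 8.37e-11, SE 0.058), or 1.38 times. The Camk2a H2B-FLAG tChIP-Seq mean of 267 CPM was not above the single ChIP-Seq means. Those were 286 CPM in the Rosa H2B-FLAG line and 284 CPM in the Camk2a H2B-FLAG line, and the Rosa H2B-FLAG tChIP-Seq mean of 195 CPM was the lowest. TrkB is made by neurons as the full-length kinase and by astrocytes mostly as the truncated form, and both start from this region.

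At Ntrk3, the Rosa H2B-FLAG libraries had 107.0, 131 and 117 CPM and the Camk2a H2B-FLAG libraries 214, 221 and 225 CPM. All Camk2a H2B-FLAG libraries were above all Rosa H2B-FLAG libraries, with a log2 fold change of 0.90 (adjusted p = 1.75e-20, SE 0.0668), or 1.87 times. The wide regions of Ntrk2, Ntrk3 and Bdnf region 3 are over 2809 bp, and 39.3% of the regions at a TSS that are at least so wide were called higher in this comparison, against 8.02% of those of at most 1528 bp, such as Ngfr. Whether width had a part in these calls was not tested.

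Ngfr had 30.8, 17.3 and 15.1 CPM in the Rosa H2B-FLAG tChIP-Seq libraries and 21.3, 17.3 and 12.9 CPM in those of the Camk2a H2B-FLAG line. The groups overlapped. Its log2 fold change was -0.31 (adjusted p = 0.213, SE 0.199), with a 95% interval from -0.70 to 0.08, so the direction was not resolved at this depth. It became 0.10 (adjusted p = 0.791) without replicate 1 of the Rosa H2B-FLAG line, whose 30.8 CPM was the highest value of the region in any library.

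**Figure D1:**
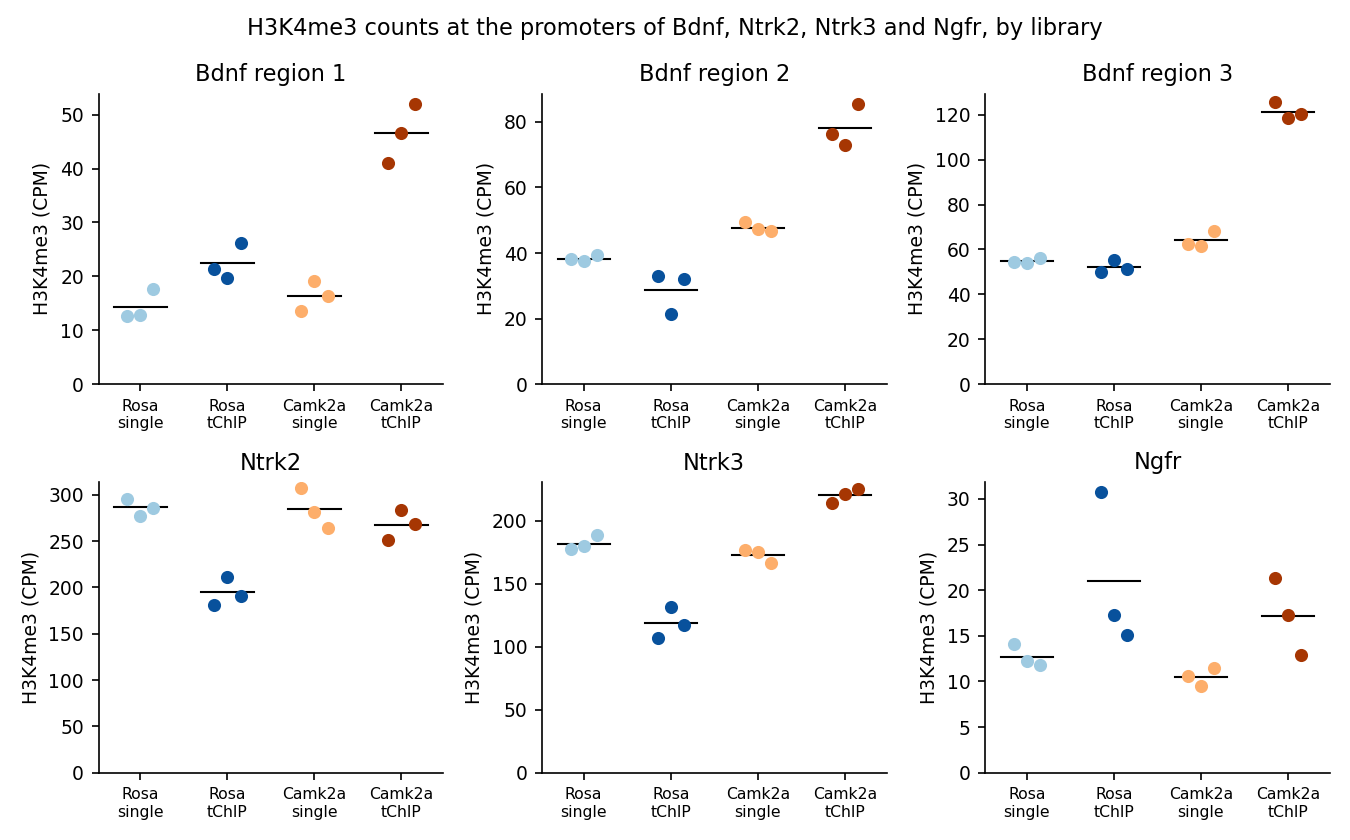
H3K4me3 at each of the 6 promoter regions in CPM on the vertical axis, with 1 point per library, the 4 groups along the horizontal axis, and a line at each group mean (n = 3). The Camk2a tChIP-Seq points stand above all others at the 3 Bdnf regions and at Ntrk3, at Ntrk2 the Rosa tChIP-Seq points stand below all others, and at Ngfr a single Rosa tChIP-Seq library reaches 30.8 CPM.

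Cell type markers moved with this comparison, in which 17.0% of all regions were called higher and 14.6% lower. Of the excitatory neuron markers, 6 of 6 with a region were higher in Camk2a H2B-FLAG tChIP-Seq (median log2 fold change 1.34), and their summed level was between 407 and 446 CPM in the Rosa H2B-FLAG libraries and between 959.6 and 1023 CPM in the Camk2a H2B-FLAG libraries. Of the inhibitory neuron markers, 5 of 6 were lower (median -1.11), with sums of 173 to 195 CPM against 78.1 to 87.9 CPM. Astrocyte markers were lower in 5 of 6 (median of the list -1.94) and higher in 1, Slc1a2, the gene of a glutamate transporter. Their sums were 475 to 514 CPM against 313 to 332 CPM. Oligodendrocyte and precursor markers were lower in 4 of 6 (median of the list -1.97) and higher in 1, Mbp, a myelin protein gene. Their sums were 196 to 215 CPM against 155 to 165 CPM. Endothelial markers were lower in 5 of 5 (median -2.16), with sums of 246 to 260.0 CPM against 62.8 to 70.7 CPM. Mural and meningeal markers were lower in 2 of 3 (median -0.80), with sums of 109 to 141 CPM against 32.1 to 37.9 CPM. None of the 7 microglial markers had a region, nor had Tbr1, Slc32a1, Gfap, Sox10, Cldn5, Sox17, Rgs5, Acta2, Dcn or Lum. Markers of neurons, glia and vessels were thus present, as belongs to cortex, and the part of the change in sampled cells in the Bdnf, Ntrk2 and Ntrk3 differences was not tested. In such bulk libraries, a different number of cells carrying the mark cannot be told apart from a different amount of mark per cell, and line cannot be told apart from tamoxifen.

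Single ChIP-Seq asked whether the cortex as a whole differed between the lines at these promoters. The differences were small: 1 of the 6 regions was called, Bdnf region 2, higher in the Camk2a H2B-FLAG line, where 2.15% of all regions were called and 0.928% called higher. The median log2 fold change of the 6 was 0.10.

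Bdnf region 2 had 38.1, 37.4 and 39.4 CPM in Rosa H2B-FLAG single ChIP-Seq and 49.5, 47.2 and 46.6 CPM in that of the Camk2a H2B-FLAG line. The groups did not overlap, as at 12.3% of all regions in this direction. The log2 fold change was 0.32 (adjusted p = 0.00711, SE 0.0813), or 1.25 times. The call was lost without any 1 of the 6 libraries, with adjusted p from 0.0147 without Rosa H2B-FLAG replicate 3 to 0.049 without Camk2a H2B-FLAG replicate 1, and in the Wald test of DESeq2 (adjusted p = 0.197).

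Bdnf region 3 showed the same arrangement on a smaller scale, with 54.5, 54.1 and 56.1 CPM against 62.5, 61.6 and 68.0 CPM. Its log2 fold change was 0.22 (adjusted p = 0.0335, SE 0.0697), which did not pass the threshold. Bdnf region 1 had 12.6, 12.9 and 17.7 CPM against 13.5, 19.1 and 16.4 CPM. These groups overlapped (log2 fold change 0.21, SE 0.138, adjusted p = 0.393).

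The receptors gave no called difference in single ChIP-Seq. Ntrk2 had 296, 277 and 286 CPM in the Rosa H2B-FLAG line and 307, 282 and 264 CPM in the Camk2a H2B-FLAG line, with overlapping groups and a log2 fold change of -0.01, whose 95% interval ran from -0.08 to 0.06. Ntrk3 had 177, 179.7 and 188 CPM against 177, 175 and 167 CPM. Its groups stood just apart, and the log2 fold change of -0.07 (95% interval -0.15 to 0.01) did not pass. Ngfr had 14.0, 12.2 and 11.8 CPM against 10.6, 9.54 and 11.5 CPM. The Camk2a H2B-FLAG libraries were all lower, an arrangement found at 12.7% of all regions, but the log2 fold change of -0.27 (adjusted p = 0.298, SE 0.156) was not called.

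**Figure D2:**
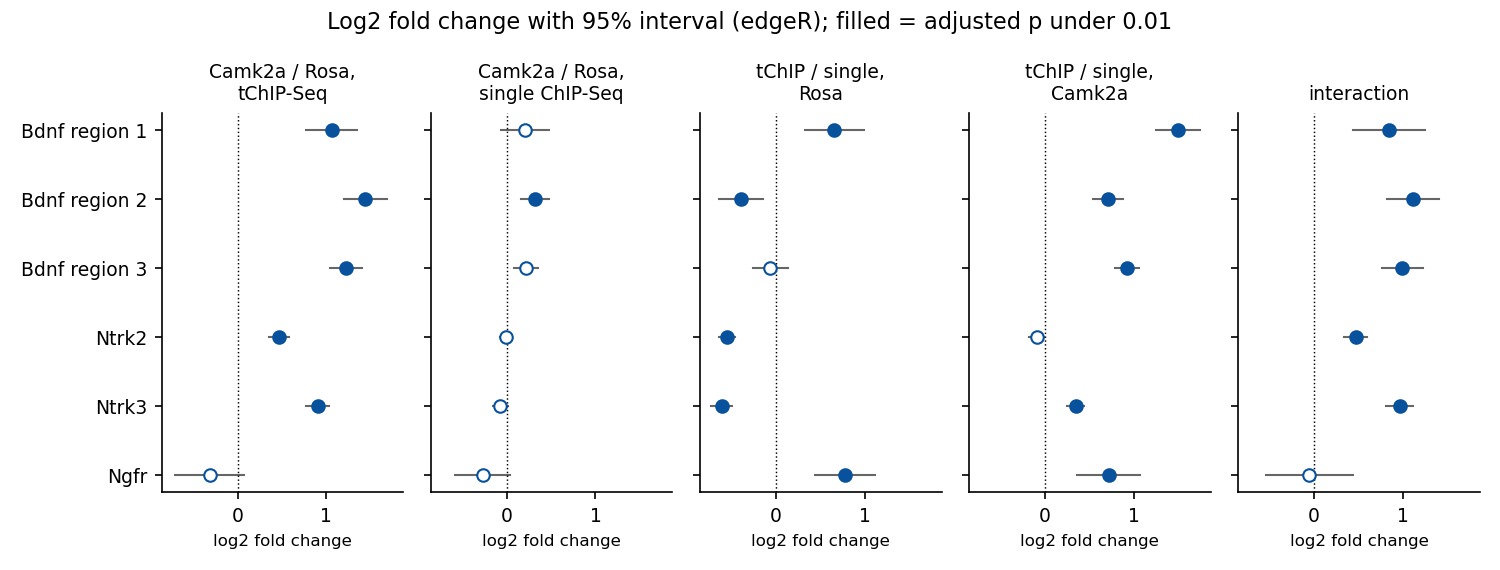
Log2 fold change of each promoter region in the 5 comparisons (horizontal axis), with bars for the 95% interval and filled points for an adjusted p under 0.01 in edgeR. The 5 regions of Bdnf, Ntrk2 and Ntrk3 lie to the right of 0 in tChIP-Seq and in the interaction, while in single ChIP-Seq only Bdnf region 2 is filled.

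tChIP-Seq was then compared with single ChIP-Seq of the same line, which shares its libraries with the comparisons above. The authors saw sites both enriched and deprived by tChIP-Seq in the Rosa H2B-FLAG line. Among other reasons, they proposed a bias towards longer DNA after the FLAG step. To offset such biases, their differential analyses were mainly made between the lines within tChIP-Seq. The part of such biases in the differences between kinds given here was not tested. In the Rosa H2B-FLAG line, where the tagged cells are nearly all cells, the promoters moved in both directions: Bdnf region 1 and Ngfr were higher in tChIP-Seq, Bdnf region 2, Ntrk2 and Ntrk3 were lower, and Bdnf region 3 was not called. In this comparison 47.2% of all regions were called, 24.7% higher and 22.5% lower.

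The lower ones were led by the wide receptor promoters. Ntrk3 fell by 0.61 on the log2 scale (adjusted p = 1.56e-21, SE 0.0614) and Ntrk2 by 0.55 (adjusted p = 6.37e-28, SE 0.0483), each with all tChIP-Seq libraries below all single ChIP-Seq libraries, as at 32.1% of all regions. Of the regions at a TSS of at least 2809 bp, 57.8% were called lower here, and of those of at most 1528 bp 41.8% were called higher, and the part of width in the receptor values was not tested.

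Bdnf region 2 was lower by 0.39 on the log2 scale (log2 fold change -0.39, SE 0.128, adjusted p = 0.00526). This call was lost with library totals in place of TMM (-0.29, adjusted p = 0.046), in DESeq2 (adjusted p = 0.0218), with a minimum of 10 counts (adjusted p = 0.0124), without Rosa H2B-FLAG single ChIP-Seq replicate 3 (adjusted p = 0.0116) and without tChIP-Seq replicate 2 (-0.22, adjusted p = 0.188). Bdnf region 3 had a log2 fold change of -0.06 (adjusted p = 0.626).

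The higher ones were the promoters with the fewest counts. Ngfr had a log2 fold change of 0.78 (adjusted p = 2.22e-05, SE 0.173), which was 0.37 (adjusted p = 0.176) without tChIP-Seq replicate 1. Bdnf region 1 had 0.66 (adjusted p = 0.000252, SE 0.168), which was 0.54 (adjusted p = 0.0135) without tChIP-Seq replicate 3. At both, the groups did not overlap, as at 30.2% of all regions in this direction.

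In the Camk2a H2B-FLAG line, 5 of the 6 promoters were higher in tChIP-Seq than by the H3K4me3 antibody alone and none was lower, where 47.9% of all regions were called and 25.3% called higher. Bdnf region 1 rose most, with a log2 fold change of 1.50 (adjusted p = 2.03e-23, SE 0.126), or 2.82 times. Bdnf region 3 followed with 0.92 (SE 0.0699) and region 2 with 0.71 (SE 0.0845). At each of the 3 Bdnf regions all libraries of tChIP-Seq exceeded those of single ChIP-Seq, as at 31.1% of all regions.

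Ntrk3 also rose in that line, with a log2 fold change of 0.35 (adjusted p = 2.05e-10, SE 0.0486), as did Ngfr, with 0.72 (adjusted p = 0.000299, SE 0.181). The Ngfr call was lost in DESeq2 (adjusted p = 0.0134) and without tChIP-Seq replicate 1 (0.52, adjusted p = 0.0317). Ntrk2 had a log2 fold change of -0.09 (adjusted p = 0.0654, SE 0.0436) with overlapping groups, which was called at -0.14 (adjusted p = 0.00977) without single ChIP-Seq replicate 3.

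The interaction of line and kind of ChIP-Seq over the 12 libraries tested whether the line difference in tChIP-Seq exceeded that in single ChIP-Seq. It did at 5 of the 6 promoters, all but Ngfr, where 26.9% of all regions were called, 13.7% higher and 13.2% lower. At a TSS, 38.8% of the regions of at least 2809 bp were called higher here, against 3.81% of those of at most 1528 bp. Ntrk2, Ntrk3 and Bdnf region 3 belong to the wide class and Ngfr to the narrow one, and the part of width was not tested. Expressed on the log2 scale, the excess was 0.85 (SE 0.206) at Bdnf region 1, 1.11 (SE 0.151) at region 2 and 1.00 (SE 0.118) at region 3. Ntrk3 had an excess of 0.97 (SE 0.0784), close to that of the Bdnf regions, and Ntrk2 one of 0.47 (SE 0.0671). Adjusted p-values of these 5 were at most 0.000284. All 5 remained called in each of 17 alternative fits. Ngfr had -0.05 (adjusted p = 0.9, SE 0.25), with a 95% interval from -0.54 to 0.44.

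The levels can be put in order for each promoter. At Bdnf region 1 the order from the lowest mean was Rosa H2B-FLAG single ChIP-Seq (14.4 CPM ± 2.84, SD, n = 3), Camk2a H2B-FLAG single ChIP-Seq (16.4 ± 2.78), Rosa H2B-FLAG tChIP-Seq (22.4 ± 3.40) and Camk2a H2B-FLAG tChIP-Seq (46.5 ± 5.46). Only the 2 lowest of these overlapped as neighbours. At Bdnf regions 2 and 3 the order was instead Rosa H2B-FLAG tChIP-Seq, Rosa H2B-FLAG single ChIP-Seq, Camk2a H2B-FLAG single ChIP-Seq and Camk2a H2B-FLAG tChIP-Seq. At region 3 the 2 lowest, with 52.2 ± 2.84 and 54.9 ± 1.08 CPM, overlapped.

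For Ntrk2 the Rosa H2B-FLAG tChIP-Seq group stood apart below (195 CPM ± 15.7), and the other 3 groups, with means of 267 to 286 CPM, overlapped. For Ntrk3 the order was Rosa H2B-FLAG tChIP-Seq (119 CPM ± 12.2), Camk2a H2B-FLAG single ChIP-Seq (173 ± 5.61), Rosa H2B-FLAG single ChIP-Seq (182 ± 5.85) and Camk2a H2B-FLAG tChIP-Seq (219.9 ± 5.51). No neighbours overlapped there, although both single ChIP-Seq groups had a library at 177 CPM. For Ngfr the order was Camk2a H2B-FLAG single ChIP-Seq (10.5 CPM ± 0.961), Rosa H2B-FLAG single ChIP-Seq (12.7 ± 1.21), Camk2a H2B-FLAG tChIP-Seq (17.2 ± 4.22) and Rosa H2B-FLAG tChIP-Seq (21.1 ± 8.50), and only the first pair of neighbours did not overlap.

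Per kb, the receptor kinases carried more of the mark than the ligand. In Camk2a H2B-FLAG tChIP-Seq, Ntrk3 had 39.2 and Ntrk2 38.1 CPM per kb, Bdnf regions 3, 2 and 1 had 33.6, 28.1 and 22.5, and Ngfr had 11.6. In the Rosa H2B-FLAG tChIP-Seq, the same values were 21.1 for Ntrk3, 27.7 for Ntrk2, 14.5, 10.3 and 10.9 for Bdnf regions 3, 2 and 1, and 14.2 for Ngfr. In CPM per kb, Bdnf region 1 thereby exceeded 5.85% of all regions at a TSS in that group and 31.1% in Camk2a H2B-FLAG tChIP-Seq. Region 3 exceeded 12.1% and 65.8% of them. These percentages are descriptions of rank, since the difference itself is the comparison given above.

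**Figure D3:**
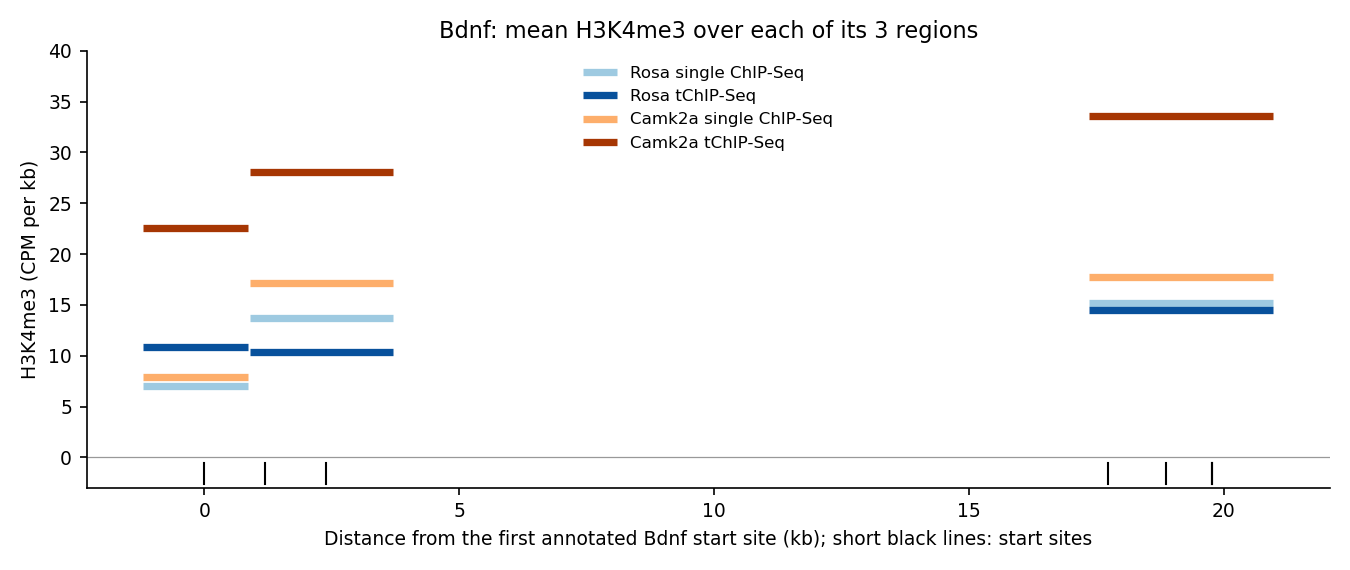
Mean H3K4me3 over each of the 3 Bdnf regions in CPM per kb (vertical axis), drawn to scale against the distance in kb from the first annotated Bdnf TSS (horizontal axis), with black lines at the annotated start sites. The Camk2a tChIP-Seq group is highest over all 3 regions and reaches 33.6 CPM per kb over region 3, while the other groups lie between 6.97 and 17.7.

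Because a share within 1 gene does not depend on how libraries are scaled, the Bdnf counts of each library were also divided among its 3 regions. Region 3, at exons IV to VI, held 51.0% ± 1.28 (SD, n = 3) of them in Rosa H2B-FLAG single ChIP-Seq, 50.7% ± 5.84 in Rosa H2B-FLAG tChIP-Seq, 49.9% ± 1.89 in Camk2a H2B-FLAG single ChIP-Seq and 49.4% ± 2.55 in Camk2a H2B-FLAG tChIP-Seq. The group means differed by at most 1.34 points in the 4 comparisons, and a difference was not resolved with 3 libraries a group (exact two-sided permutation test, p between 0.7 and 1, adjusted p = 1), a design in which the smallest possible p is 0.1. Without 1 library, the differences ran from -3.69 to 2.01 points. The total of Bdnf counts behind a share was between 162 and 873 per library.

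The remainder was divided differently in the 2 kinds of ChIP-Seq. Region 1, at exon I, held from 12.0% to 15.6% of the Bdnf counts in Rosa H2B-FLAG single ChIP-Seq and from 10.8% to 14.9% in Camk2a H2B-FLAG single ChIP-Seq, but from 20.4% to 24.0% and from 16.9% to 20.2% in the respective tChIP-Seq groups. Region 2, at exons II and III, held from 34.8% to 39.4% across the 6 libraries of single ChIP-Seq but only from 22.2% to 33.2% across those of tChIP-Seq. The tChIP-Seq libraries of both lines thus had a larger exon I share than any single ChIP-Seq library, and these shares of regions 1 and 2 were not tested.

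**Figure D4:**
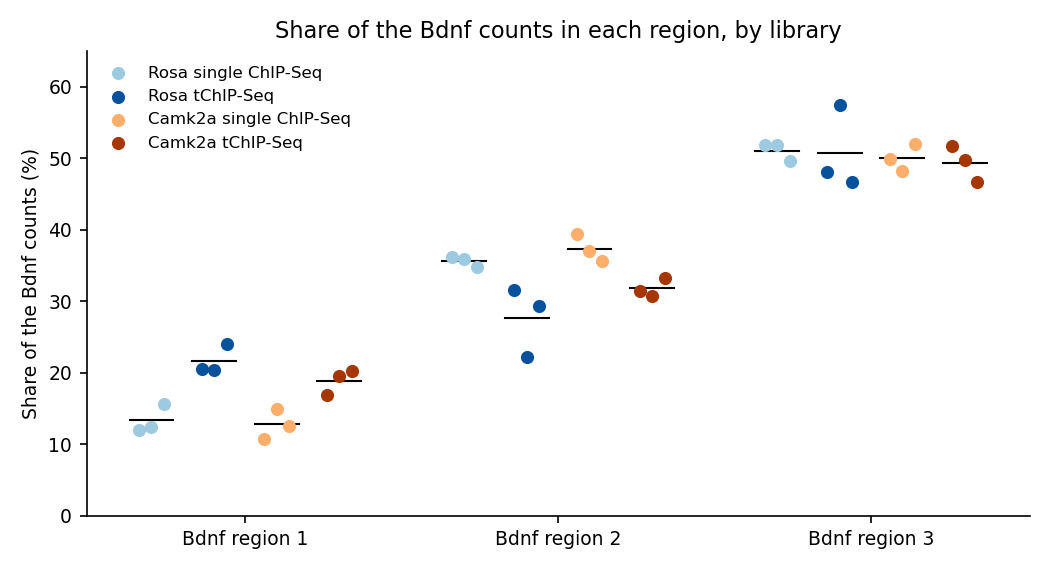
Share of the Bdnf counts in each of the 3 regions, in percent (vertical axis), with 1 point per library and a line at each group mean (n = 3). The means of region 3 run from 49.4% to 51.0% in the 4 groups, while region 1 is larger and region 2 smaller in the tChIP-Seq libraries.

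Away from the TSSs, Ntrk2 had 1 more region in an intron (chr13:59112375-59113160, 786 bp), with between 18 and 31 counts per library. It went from 3.33, 3.35 and 5.07 CPM without FLAG selection in the Rosa H2B-FLAG line to 13.6, 13.1 and 11.8 CPM with it, a log2 fold change of 1.75 (adjusted p = 4.43e-11, SE 0.253). The Camk2a H2B-FLAG values were 5.66, 6.44 and 5.23 CPM in single ChIP-Seq and 8.86, 7.94 and 10.7 CPM in tChIP-Seq, and their log2 fold change of 0.66 (adjusted p = 0.0142, SE 0.241) was not called. This intronic region was therefore opposite to the Ntrk2 promoter in the Rosa H2B-FLAG line, where 24.7% of all regions were called higher. At a TSS, 41.8% of the regions of at most 1528 bp were called higher there, and 57.8% of those of at least 2809 bp lower. The part of width in this contrast was not tested. The interaction was -1.08 (adjusted p = 0.00678, SE 0.342), called in 8 of 17 alternative fits with adjusted p between 0.0022 and 0.0277. It was lost in DESeq2 and without each of Rosa H2B-FLAG single ChIP-Seq replicates 1 and 2, Rosa H2B-FLAG tChIP-Seq replicates 1 and 2, Camk2a H2B-FLAG single ChIP-Seq replicates 1 and 2 and Camk2a H2B-FLAG tChIP-Seq replicates 1 and 2, with values from -1.10 to -0.97.

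Both intronic Ntf3 regions were higher in tChIP-Seq than in the matching single libraries of each line, with log2 fold changes of 1.07 (SE 0.302) and 1.23 (SE 0.403) in the Rosa H2B-FLAG line and 1.70 (SE 0.268) and 1.91 (SE 0.302) in the Camk2a H2B-FLAG line. Beside them, 24.7% of all regions were called higher in the Rosa H2B-FLAG line and 25.3% in the Camk2a H2B-FLAG line. For regions at a TSS of at most 1528 bp, these shares were 41.8% and 27.0%. The value of the farther region in the Rosa H2B-FLAG line was 0.85 (adjusted p = 0.0426) without tChIP-Seq replicate 2. The call of the nearer region there was lost in DESeq2 (adjusted p = 0.0223) and without single ChIP-Seq replicate 2 or 3 or tChIP-Seq replicate 1 or 3 (adjusted p from 0.0121 to 0.0429).

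The regions whose log2 CPM ran most like a member's over the 12 libraries were taken from 12252 others at protein-coding TSSs with a mean of at least 10 CPM, as a description in which all values share the same libraries. For Bdnf region 3 these were Cwh43 (Pearson r 0.995), Wnt9a, a Wnt ligand (0.987), and Rspo2, a secreted Wnt agonist (0.986). For Bdnf region 2 they were Rab27b, a small GTPase of vesicle release (0.992), Car11 (0.986) and Dgkz, a diacylglycerol kinase (0.980), and for region 1 BC021891 (0.976), Rab39 (0.971) and Slc26a4 (0.970). Ntrk3 ran with Olfm1 (0.994), Coro1a, an actin-binding protein (0.993), and 4833424O15Rik (0.991), and Ntrk2 with Zeb2, a transcriptional repressor (0.984), Tspan13 (0.965) and Enc1 (0.965). Ngfr had no partner as close, with Camk2g (0.903), Cdc6 (0.884) and Rad18 (0.880). Between members, r was 0.891 for Bdnf regions 2 and 3, 0.829 for Ntrk2 and Ntrk3, and -0.703 for Ntrk2 and Ngfr.

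The rest of the pathway was described from 98 genes on 9 lists, of which 95 had a region at a TSS and Mmp9, Irs2 and Bex1 had none. In tChIP-Seq, 22 of the 95 were higher in the Camk2a H2B-FLAG line, 9 were lower and 64 were not called, with a median log2 fold change of 0.06. Over all regions, 17.0% were called higher and 14.6% lower. With library totals in place of TMM the counts were 18 and 10 and the median -0.02. The number lower was 4 in DESeq2 and 5 without Rosa H2B-FLAG tChIP-Seq replicate 2.

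The further ligand gene Ntf5, which encodes neurotrophin-4, had a log2 fold change of -0.59 (adjusted p = 0.0492) with overlapping groups, and was called neither in edgeR nor in DESeq2. Of the other receptors and co-receptors, 5 of 8 were higher, beside 17.0% of all regions, and the median was 0.69. None was lower in edgeR, in DESeq2 or at an unadjusted p under 0.05. The 5 higher ones were Sorcs3, a sortilin-family receptor (1.28), its relatives Sorcs1 (0.70) and Sorl1 (0.68), Lingo1, a partner of p75 in the Nogo receptor complex (1.11), and Rtn4r, the Nogo receptor itself (1.05). Their regions and that of Sort1 are over 2809 bp, and 39.3% of regions at a TSS at least so wide were called higher. The part of width in these calls was not tested. The regions of Sorcs1, Camk4 and Prkca also hold TSSs of Gm16745, 2310026I22Rik and Apoh, and that of Sort1 a TSS of Gm12523. Sort1, the co-receptor of p75 for pro-neurotrophins, had -0.03 (adjusted p = 0.761), Sorcs2 0.22 (adjusted p = 0.0731) and Kidins220, a scaffold of Trk receptors, 0.07 (adjusted p = 0.648).

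Genes for processing and release of pro-neurotrophins were higher in 4 of 8 (median 0.23), where 17.0% of all regions were called higher. Among them were Cadps2, which promotes release of dense-core vesicles (0.67), and Serpini1, a neuronal inhibitor of tissue plasminogen activator (0.66). The others were the convertase gene Pcsk5 (0.56) and Plat, which encodes that plasminogen activator (0.33). Furin, the convertase of the secretory pathway, had 0.14 (adjusted p = 0.125).

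Below the receptors, the PLC-gamma branch was higher in 4 of 6 (median 0.34), where 17.0% of all regions were called higher. It was led by Camk4, a calcium-dependent kinase (0.97), then by the protein kinase C gene Prkcb (0.63), the inositol trisphosphate receptor gene Itpr1 (0.41) and Prkca (0.27). The regions of these 4 are over 2809 bp, and 39.3% of regions at a TSS at least so wide were called higher. With library totals, or without Rosa H2B-FLAG tChIP-Seq replicate 1, the number higher was 3. Plcg1 itself had -0.08 (adjusted p = 0.399). Elsewhere the calls were 1 higher and 2 lower of 17 in the Ras-MAPK branch, 1 higher and 2 lower of 12 in the PI3K-Akt branch, 2 higher and 1 lower of 17 Trk adaptors, and 2 higher and 3 lower of 16 p75 adaptors and processing genes, beside the 31.6% of all regions called in either direction.

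The genes with the largest fall were Gab1, a docking protein of growth factor receptors, at -1.49 (adjusted p = 1.1e-24, SE 0.0917), and Rest, the repressor of neuronal genes, at -0.89 (adjusted p = 1.76e-13, SE 0.0932). Mapk3, which encodes ERK1, had -0.64 (adjusted p = 2.75e-05), Irak1 -0.61 (adjusted p = 0.00103) and Pik3cb -0.40 (adjusted p = 0.000879). The Irak1 region is shared with AL672002.1 and Mir718, and its call was lost in DESeq2 (adjusted p = 0.0125), while that of Pik3cb was lost without Rosa H2B-FLAG tChIP-Seq replicate 2 (-0.29, adjusted p = 0.0387).

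Among 10 transcription factors known to act on Bdnf promoters, 3 were higher and Rest alone was lower. Over all regions, 17.0% were called higher and 14.6% lower. Npas4, an activity-induced factor, had 61.1 CPM ± 2.80 in Rosa H2B-FLAG tChIP-Seq and 195 ± 11.6 in that of the Camk2a H2B-FLAG line, a log2 fold change of 1.68 (adjusted p = 9.09e-31, SE 0.0805). The others were Mef2c (0.49) and Crtc1 (0.43). Creb1, whose product binds the cyclic AMP response element, had 0.15 (adjusted p = 0.127).

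**Figure D5:**
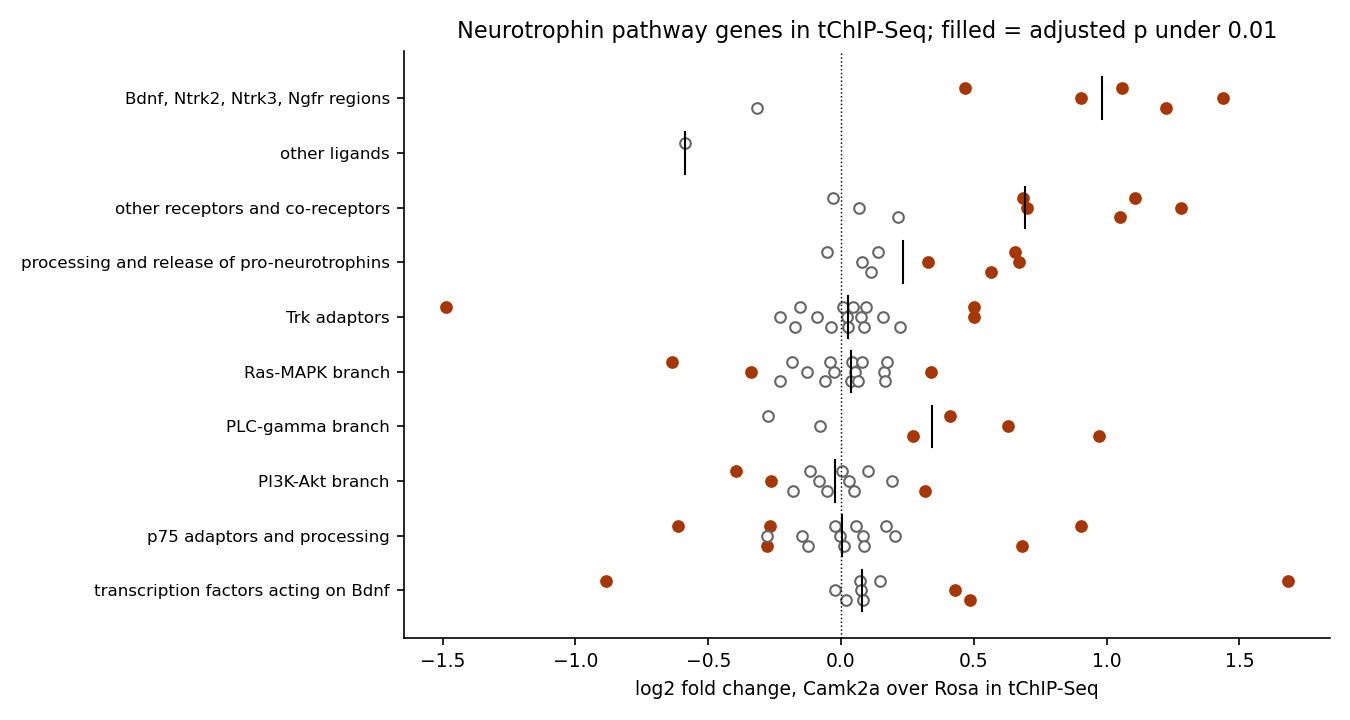
Log2 fold change of Camk2a over Rosa in tChIP-Seq (horizontal axis) for the 6 promoter regions and for each pathway gene by list, with filled points for an adjusted p under 0.01 and a vertical line at each median. The medians are 0.98 for the 6 regions, 0.69 for the other receptors and co-receptors and 0.34 for the PLC-gamma branch, and lie near 0 for the Ras-MAPK and PI3K-Akt branches (0.04 and -0.02).

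In single ChIP-Seq none of the 95 pathway genes was higher in the Camk2a H2B-FLAG line and 5 were lower, which were Furin, Rap1a, Rap1b, Ndn and Creb1, at log2 fold changes between -0.45 and -0.17, where 1.22% of all regions were called lower. Calls in this direction depended on the method: of all regions, 219 were lower in edgeR, 57 with library totals and 7 in DESeq2. The median over all 95 was -0.06. At an unadjusted p under 0.05, 2 were higher, and DESeq2 called none higher at the same adjusted threshold. In tChIP-Seq against single ChIP-Seq, 6 of the 95 were higher and 54 lower in the Rosa H2B-FLAG line, where 24.7% of all regions were called higher and 22.5% lower. In the Camk2a H2B-FLAG line 22 were higher and 33 lower, beside 25.3% and 22.6% of all regions. In the interaction 26 were higher and 5 lower, beside 13.7% and 13.2% of all regions.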

How the data were processed

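H3K4me3 libraries of single ChIP-Seq and tChIP-Seq were analysed in 4 groups of 3, assigned from the labels. Per the labels and methods, the authors trimmed reads of 80 nucleotides, removed repeats with Bowtie2 2.1.0, mapped the rest to mm9 with Bowtie 1.0.0, removed duplicates with SAMtools (0.1.19 in the labels, a later version in the methods), used MACS for peaks, and counted the reads on regions with bedtools 2.17.0. The deposited values are whole-number counts without normalization on 17993 regions, and how these were merged is not given in the sources used here. Antisense or shared reads within a region cannot be assigned to a gene, and counts at the narrow regions carry the larger counting error.

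Comparisons of 2 groups were fitted to their own 6 libraries, and the interaction to all 12, in edgeR 4.0.16 under R 4.3.3 (TMM, glmQLFit, glmQLFTest, no filter on low counts, no covariate), with Benjamini-Hochberg adjustment over all regions and calls at an adjusted p under 0.01. SE was taken as the absolute log2 fold change over the root of F. On simulated data with 200 of 17993 regions changed, between 74% and 90% were recovered at a log2 change of 1 and between 39% and 68% at 0.5, depending on the comparison. Alternatives were size factors and the Wald test of DESeq2 1.42.0, library totals, a minimum of 10 counts in every library, a threshold of 0.05, all 12 libraries in 1 fit, a replicate block, and leaving out each library. Those for the pathway and marker genes were added after the data were seen.

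Named were all member regions, the 3 most alike regions of each, and among pathway genes Ntf5 and the 5 with the largest called log2 fold change in each direction in tChIP-Seq whose groups did not overlap. Some genes of the lists and some promoter sequences are not reported here, and those genes enter no count over a list. Other pathway genes were named after their values were seen. Members, lists and rules were chosen with earlier results of these data known. Genes and TSSs were from GENCODE M1, the numerals of the Bdnf exons were assigned by common usage in order along the gene, and sequences from the mm9 assembly. The study describes its triplicates as independent experiments, but the labels do not tie libraries to animals, so p-values measure the spread between these libraries. The titles give the single ChIP-Seq and tChIP-Seq libraries of a line the same numbers, which may mark a shared preparation. The numbers enter only the alternative with a replicate block. Python 3.11.15, numpy 2.4.6, pandas 2.3.3, scipy 1.17.1 and matplotlib 3.10.9 were used for the remainder.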

Additional observations from a re-analysis of the deposited data

Results flagged for a closer look

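The line difference in tChIP-Seq was compared with that in single ChIP-Seq by a test of the difference itself (the interaction over 12 libraries, edgeR). It departed at 6 of the promoter and intronic regions, where 26.9% of all regions were called, 13.7% higher and 13.2% lower. Ngfr and both intronic Ntf3 regions were not called. At a TSS, 38.8% of the regions of at least 2809 bp were called higher. The excess on the log2 scale was 0.85 at Bdnf region 1, 1.11 at Bdnf region 2 and 1.00 at Bdnf region 3. It was 0.47 at the Ntrk2 promoter and 0.97 at the Ntrk3 promoter. At the intronic Ntrk2 region it had the opposite sign, -1.08, and its call was lost in 9 of 17 alternative fits. The causes were not tested.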

How the results depend on the processing

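Over the alternatives, 394 of 420 values of the 6 promoters kept their direction and call, 16 lost the call, 2 gained it and 8 turned direction. In single ChIP-Seq the 1 promoter called became 2 at an adjusted p under 0.05, 0 in the Wald test of DESeq2 (7 of all regions lower, 27 higher, against 219 and 167 in edgeR) and 0 without any single library, and all regions called went from 167 higher and 219 lower to 194 and 57 with library totals and to 522 and 669 at the 0.05 threshold. With library totals, Ntrk2 in single ChIP-Seq became 0.019 and Bdnf region 3 in tChIP-Seq against single ChIP-Seq of the Rosa H2B-FLAG line 0.040 on the log2 scale. That scaling also changed the calls over all regions to 2570 higher and 3315 lower in tChIP-Seq between lines (3062 and 2620 with TMM), to 5298 and 2522 between kinds in the Rosa H2B-FLAG line (4439 and 4046) and to 1894 and 2970 in the interaction (2466 and 2375). The cause was not tested.

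Leaving out 1 library at a time, log2 fold changes ran from -0.51 to 0.10 for Ngfr in tChIP-Seq between lines, from -0.071 to 0.038 for Ntrk2 and from -0.33 to 0.12 for the farther intronic Ntf3 region in single ChIP-Seq, and from -0.25 to 0.36 for Ngfr in the interaction. Differences in the share of Bdnf region 3 ran from -3.34 to 2.01 points in tChIP-Seq between lines, from -3.69 to 1.66 between kinds in the Rosa H2B-FLAG line and from -1.74 to 0.783 in the Camk2a H2B-FLAG line, where the exact test cannot go below p = 0.1.

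With the replicate block no call of the 6 promoters changed, and that of the nearer intronic Ntf3 region in tChIP-Seq was lost (1.02, adjusted p = 0.012). Deviations of libraries of the same number correlated by r between -0.019 and 0.038, too weakly to use the numbers as pairs, which does not show that the preparations were separate. Counts of at most 59 per library limited Ngfr and Bdnf region 1 in tChIP-Seq of the Rosa H2B-FLAG line.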
